A study of Mus musculus with 6 samples.

Results

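The chemokine Cxcl12 and its receptors Cxcr4 and Ackr3 were measured in cells sorted for expression of CTIP2, the protein of Bcl11b. The 3 genes were taken by symbol from the platform annotation, out of 19938 genes with a probe set of their own, and each had 1 probe set. RNA came from mouse ESC-derived cortical progenitors of a CTIP2:GFP knock-in line, made in 129SVEV cells by inserting IRES-GFP and a neo cassette just behind the coding region. Both fractions carried this allele and had the same SFEBq culture with early inhibition of WNT and TGF-beta receptor signaling, and whether the line is 1 clone is not given in the sources used here. CTIP2:GFP+ and CTIP2:GFP- cells were sorted on day 11, day 12 and day 13, and each fraction had 1 GeneChip Mouse Gene 1.0 ST array per day, so that 3 arrays stood for each fraction. Values are RMA signals on the log2 scale, and a difference is GFP+ minus GFP- on that scale, so that 1 unit is a 2-fold change. No day was repeated. In the fit of fraction and day, the error behind a p-value starts from how the GFP+ minus GFP- difference varied over the 3 consecutive days. For each gene that variance was then moderated towards the variance of all genes.

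CXCL12, also called SDF-1, is a secreted chemokine that binds to heparan sulfate on cells and in the matrix. CXCR4 is its Gi-coupled receptor and drives directed migration. ACKR3, also called CXCR7, binds the same chemokine, recruits arrestins and takes the chemokine into the cell, which shapes the gradient that CXCR4 senses. In the developing mouse cortex the ligand is made by the meninges and by intermediate progenitors, and Cajal-Retzius cells and migrating interneurons carry the receptors.

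None of the 3 genes differed between CTIP2:GFP+ and CTIP2:GFP- cells by more than the spread between days. In limma, fitted to fraction and day with p-values adjusted over the 19938 genes by Benjamini-Hochberg, 0 of 3 were higher and 0 of 3 lower (adjusted p under 0.05), while 0.797% of all genes were higher and 0.567% lower. That is 159 higher and 113 lower genes, a split that became 52 and 99 after a further quantile normalization and 0 and 0 after median centring of the arrays. At an unadjusted p under 0.05 the count was 0 of 3 with limma, against 15.5% of all genes, and 0 of 3 with the methods' t-test, against 8.81% of all genes. By mean difference, 0 of 3 were over 2-fold higher or lower, against 1.97% and 1.02% of all genes. Cxcl12 lay below the median signal on all 6 arrays, Cxcr4 above it on 5 and Ackr3 above it on 1. The mean over the 6 arrays was 4.92 for Cxcl12, 5.75 for Cxcr4 and 5.36 for Ackr3, on arrays whose medians ran from 5.32 to 5.52. The fractions overlapped for each of the 3 genes, while 16.9% of all genes had fractions that did not overlap. In bulk RNA of a fraction, fewer cells that express a gene and less RNA per cell cannot be told apart.

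The sorted fractions themselves were apart. The sorted gene itself, Bcl11b, was 3.65-fold higher in GFP+ cells, with a log2 signal of 8.40 ± 0.44 in GFP+ and 6.53 ± 0.32 in GFP- cells (SD, n = 3 arrays each). The label calls the cells of both fractions cortical progenitors and does not name radial glia, the dividing progenitors of the cortex. Genes of radial glia were present: Slc1a3 averaged 6.64 in GFP+ and 9.36 in GFP- cells. The GFP- array of day 13 stood apart from the others, with the narrowest spread of signals (standard deviation 1.11, and 1.29 to 1.48 on the other 5 arrays) and the highest median (5.52).

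Cxcl12, the ligand, had log2 signals of 4.90, 4.77 and 4.78 in GFP+ cells on day 11, day 12 and day 13, and of 4.87, 4.81 and 5.37 in GFP- cells on the same days. The first 5 of these values lay between 4.77 and 4.90, and the GFP- array of day 13 alone was higher. Cxcl12 stood between percentile 27.1 and percentile 33.1 of all probe sets on those 5 arrays, and at percentile 43.2 on the GFP- array of day 13. The mean was 4.82 ± 0.07 in GFP+ and 5.02 ± 0.31 in GFP- cells (SD, n = 3 arrays each), and the log2 difference was -0.20 (standard error 0.18, 95% interval -0.63 to 0.24, adjusted p = 0.656 from limma). By day the difference was 0.03, -0.04 and -0.59. On day 13, 11.3% of all genes had a difference as low or lower. The day 13 difference of Cxcl12 was -0.44 after median centring of the arrays and -0.40 after a further quantile normalization. Without day 13 the difference was -0.0014. The probe set covers 3 RefSeq transcripts of Cxcl12, so its splice forms were not told apart.

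Cxcr4, the signaling receptor, had log2 signals of 5.89, 5.45 and 5.56 in GFP+ cells on day 11, day 12 and day 13, and of 5.70, 6.58 and 5.32 in GFP- cells. The GFP- array of day 12 held the highest of the 6 values and the GFP- array of day 13 the lowest, so that the GFP+ values lay inside the range of the GFP- values. Cxcr4 stood between percentile 41.3 and percentile 72.5 of all probe sets, lowest on the GFP- array of day 13 and highest on the GFP- array of day 12. The mean was 5.63 ± 0.23 in GFP+ and 5.87 ± 0.64 in GFP- cells (SD, n = 3 arrays each), and the log2 difference was -0.23 (standard error 0.29, 95% interval -0.96 to 0.49, adjusted p = 0.744 from limma). The difference was 0.18 on day 11 and 0.24 on day 13, both in favor of GFP+ cells, and -1.12 on day 12. That 2.18-fold lower signal in GFP+ cells on day 12 was the 1 daily difference among the 3 genes that exceeded 2-fold, on a day on which 2.43% of all genes were over 2-fold lower and 1.77% had a difference as low or lower than that of Cxcr4. It rests on 1 pair of arrays and has no replicate. The Cxcr4 difference on day 12 was -1.14 after median centring of the arrays and -0.89, less than 2-fold, after a further quantile normalization. On day 11, 0 of 3 genes were over 2-fold higher or lower, against 1.85% and 1.3% of all genes, on day 12 0 were higher, against 1.48%, and on day 13 0 were higher or lower, against 9.18% and 2.29%. Without day 12 the difference of Cxcr4 turned to 0.21 (adjusted p = 0.652 from limma).

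Ackr3, the scavenging receptor, had log2 signals of 5.87, 5.07 and 5.34 in GFP+ cells on day 11, day 12 and day 13, and of 5.24, 5.19 and 5.44 in GFP- cells. The GFP+ fraction held both the highest value, on day 11 (percentile 62.3 of all probe sets), and the lowest, on day 12 (percentile 41.7). The mean was 5.43 ± 0.41 in GFP+ and 5.29 ± 0.13 in GFP- cells (SD, n = 3 arrays each), and the log2 difference was 0.14 (standard error 0.20, 95% interval -0.35 to 0.62, adjusted p = 0.775 from limma). On day 11 the signal was 1.55-fold higher in GFP+ cells (log2 difference 0.63), and 6.15% of all genes had a difference as high or higher on that day. The difference was -0.12 on day 12 and -0.10 on day 13, and the value of day 13 turned to 0.05 after median centring of the arrays and to 0.07 after a further quantile normalization. Without day 11 the mean difference turned to -0.11 (adjusted p = 0.9999 from limma).

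**Figure D1:**
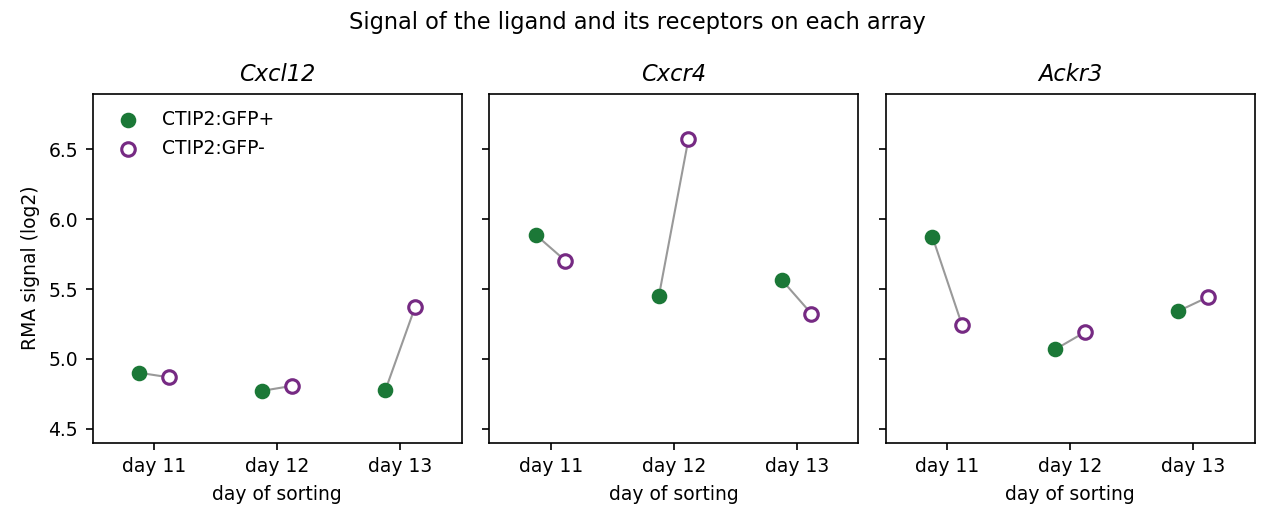
RMA signal (y axis, log2) of Cxcl12, Cxcr4 and Ackr3 on day 11, day 12 and day 13 (x axis). Filled points are CTIP2:GFP+ and open points CTIP2:GFP- arrays, and a line joins the 2 arrays of 1 day. The widest gaps are those of Cxcr4 on day 12 (5.45 in GFP+ and 6.58 in GFP- cells), Ackr3 on day 11 (5.87 and 5.24) and Cxcl12 on day 13 (4.78 and 5.37).

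The largest daily difference of each gene fell on a different day, and none of the 3 genes kept 1 sign over the 3 days. Most of all genes did not either, since 16.9% were higher and 21.4% lower in GFP+ cells on all 3 days. The difference of Cxcl12 minus that of Cxcr4 was -0.15, 1.09 and -0.83 on day 11, day 12 and day 13, values that were compared without a test. Whether the difference changed steadily with time was tested with fraction, day and their product in limma. The slope per day was -0.31 for Cxcl12 (standard error 0.25), 0.03 for Cxcr4 (0.42) and -0.36 for Ackr3 (0.29), each at an adjusted p of 0.999. In this test 0 of 19938 genes (0%) passed, and 108 had an unadjusted p under 0.05 in limma.

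**Figure D2:**
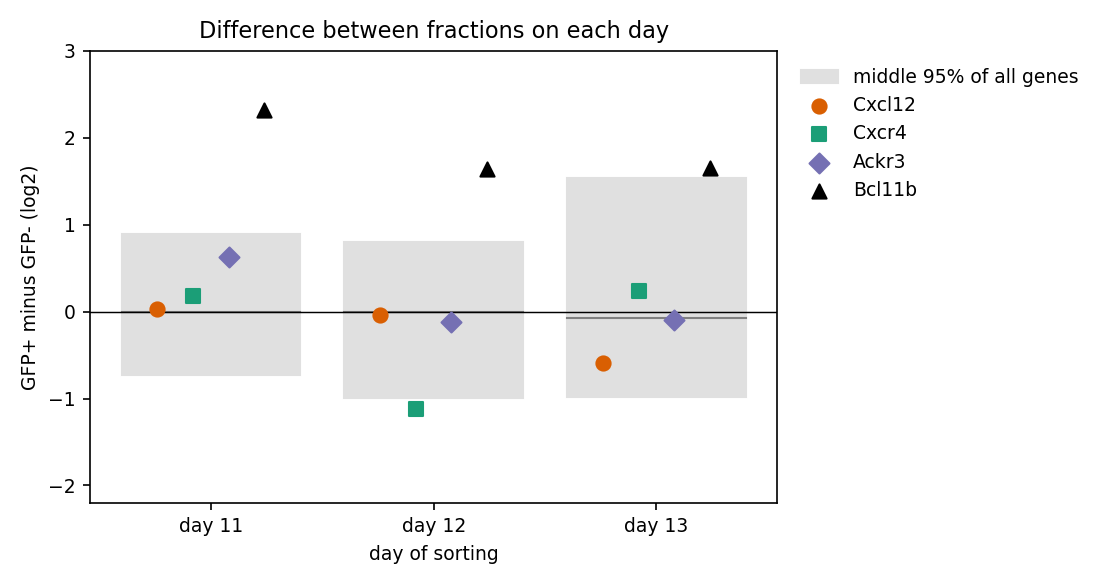
GFP+ minus GFP- difference (y axis, log2) of Cxcl12, Cxcr4, Ackr3 and Bcl11b on day 11, day 12 and day 13 (x axis). Grey boxes hold the middle 95% of all 19938 genes and the grey line their median. Cxcr4 on day 12 (-1.12) lies just below the box, whose lower edge is -0.99, and the other 8 values of the ligand and its receptors lie inside.

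The size of the errors sets what the comparison could show. At its own standard error in this fit, Cxcl12 would have needed a log2 difference of 1.16 in size to be called, Ackr3 1.29 and Cxcr4 1.93, which are 2.23-fold, 2.45-fold and 3.80-fold. With trended and robust eBayes on the same arrays the standard errors were smaller (0.15 for Cxcl12, 0.22 for Cxcr4 and 0.18 for Ackr3), and none of the 3 genes passed (adjusted p of 0.501, 0.613 and 0.731 from limma). The 95% intervals run from 0.645-fold to 1.18-fold for Cxcl12, from 0.516-fold to 1.41-fold for Cxcr4 and from 0.785-fold to 1.54-fold for Ackr3. Among the 5678 genes whose mean signal lay between those of Cxcl12 and Cxcr4, 5 were called higher and 5 lower. That is 0.176% in all, against 0.797% higher and 0.567% lower over all genes.

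The genes whose signals ran most like those of the 3 genes over the 6 arrays were sought among genes with a standard deviation of at least 0.5 over the arrays, and the correlations are given as a description. Cxcl12 correlated with Tchh at a Pearson r of 0.997, with Zar1 at 0.995, with Scara5 and Rrad at 0.994 and with E130009M23Rik at 0.993, and 138 genes of 2735 exceeded 0.9. The highest value of all 5 genes was that of the GFP- array of day 13, the array that stood apart. For Cxcr4 the closest genes were Ube2l6 (0.964), Car2 (0.955), Scarna17 (0.955), Glo1 (0.939) and S100a16 (0.936), and 15 genes exceeded 0.9. All 5 were highest on the GFP- array of day 12. For Ackr3 they were Tox2 (0.914), Dlgap1 (0.882), Dpp10 (0.848), Sox1 (0.828) and Scand1 (0.821), all highest on the GFP+ array of day 11, and 1 gene exceeded 0.9. With 6 arrays, 1 high array can decide such a correlation.

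No other gene of the chemokine family passed the test. Of 55 chemokines and chemokine receptors on the array, the 3 genes included, 0 were higher and 0 lower past limma's test, and 2 had an unadjusted p under 0.05 (15.5% of all genes did), against 0 with the methods' t-test. Their median difference was -0.06, against -0.05 over all genes. The median of the 34 ligands was -0.05 and that of the 21 receptors -0.09. The brightest members beside the 3 genes were Ccl25, a chemokine of thymus and gut, with 6.36 in GFP+ and 5.83 in GFP- cells (adjusted p = 0.211), Cx3cl1, a membrane-bound chemokine of neurons, with 6.12 and 5.84, Ccl19, a ligand of Ccr7, with 5.93 and 5.90, Cxcl14, with 5.64 and 6.01, and Cx3cr1, the receptor of Cx3cl1, with 5.61 and 5.62. None of the 55 had a mean signal above 7, and 3574 of all 19938 genes did.

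Other ligands and partners of the 2 receptors did not pass the test either (0 of 7, with 1 at an unadjusted p under 0.05 in limma, against 15.5% of all genes). The farthest apart was Adm, adrenomedullin, a peptide that ACKR3 also binds. Its log2 signals were 5.43, 5.60 and 5.70 in GFP+ cells on day 11, day 12 and day 13, against 6.22, 7.22 and 6.59 in GFP- cells. Every GFP+ value lay below every GFP- value, and 16.9% of all genes had fractions that did not overlap. The difference of Adm was -1.10 (standard error 0.20, adjusted p = 0.071 from limma). Adm did pass without day 11 (adjusted p = 0.018), without day 12 (0.047), with either filter on dim genes (0.036 and 0.012) and with trended and robust eBayes (0.00078). It fell short in 8 other alternatives, among them no replicate block (adjusted p = 0.131 from limma), without day 13 (0.116) and median centring (0.207). Mif, a cytokine that can act through CXCR4, had 9.30 in GFP+ and 9.68 in GFP- cells.

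Downstream of the receptors, 1 of 21 G protein and effector genes was higher and 0 were lower, against 0.797% and 0.567% of all genes. The 1 higher gene was Elmo1, an adaptor that works with Dock proteins to activate Rac in migrating cells. Elmo1 had log2 signals of 7.07, 7.41 and 7.12 in GFP+ cells on day 11, day 12 and day 13, against 5.69, 6.32 and 5.59 in GFP- cells. The fractions did not overlap, as was true of 16.9% of all genes, and the difference was 1.33 (standard error 0.15, adjusted p = 0.031 from limma). The call was lost with no replicate block for the day (also without the GFP- array of day 13), without day 13, after median centring and after a further quantile normalization, with differences of 1.19 to 1.39, and with the methods' t-test. The median difference of the 21 genes was 0.34, and 11 of them were higher and 3 lower on all 3 days, as were 16.9% and 21.4% of all genes. An unadjusted p under 0.05 in limma was reached by 11 of the 21, against 15.5% of all genes. Without day 11 the list had 4 higher genes and without day 12 it had 6, while 381 and 930 of all genes were higher. Of 9 arrestins, receptor kinases and RGS proteins, which switch the receptors off or carry ACKR3 signals, 0 passed, with 4 at an unadjusted p under 0.05 in limma (15.5% of all genes). On all 3 days 4 of these 9 genes were higher and 4 lower in GFP+ cells, and their median difference was 0.05. The widest of the 9 were Rgs2, with 6.64 in GFP+ and 5.66 in GFP- cells, and Arrb1, which encodes beta-arrestin, with 8.38 and 7.56 (adjusted p = 0.060 from limma, and 0.043 and 0.034 with the filters on dim genes). Arrb1 fell short in 11 other alternatives, among them no replicate block (adjusted p = 0.090 from limma) and median centring (0.121). At least 1 of the 9 genes was higher in 5 alternatives.

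Outside the cell, 1 of 14 genes for CXCL12 proteases and for heparan sulfate, which holds the chemokine, was lower in GFP+ cells and 0 were higher. Over all genes 0.567% were lower and 0.797% higher. The 1 lower gene was Sulf1, an extracellular sulfatase that trims sulfate groups from heparan sulfate. Sulf1 had log2 signals of 5.18, 4.92 and 5.13 in GFP+ cells on day 11, day 12 and day 13, against 6.31, 6.44 and 6.29 in GFP- cells. The fractions did not overlap, as was true of 16.9% of all genes, and the difference was -1.27 (standard error 0.15, adjusted p = 0.032 from limma). The call was lost without day 13 and after median centring, with differences of -1.33 and -1.21, and with the methods' t-test, and held with no replicate block and after a further quantile normalization. Its relative Sulf2, named after its values were seen, was at 8.38 in GFP+ and 9.32 in GFP- cells and did not pass (adjusted p = 0.066 from limma), but did without day 12 (0.016) and with either filter on dim genes (0.040 and 0.021). Sulf2 fell short in 10 other alternatives, among them no replicate block (adjusted p = 0.102 from limma) and median centring (0.158). Dpp4, the peptidase that clips the chemokine, was at 4.59 in GFP+ and 4.76 in GFP- cells. The median of the 14 genes was -0.39, and 6 of them had an unadjusted p under 0.05 in limma (15.5% of all genes did).

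Genes of the cells known to make the ligand or to carry the receptors were set beside the 3 genes. Of 13 ganglionic eminence and interneuron genes 7 were higher in GFP+ cells and 0 lower, against 0.797% and 0.567% of all genes. The median difference of the 13 was 2.27, and the 7 included Dlx1 (3.22), Erbb4 (2.97) and Sst (2.95). Without day 13, after median centring or with the methods' t-test, 0 of the 13 passed, and with no replicate block 2 did. Without day 11 the count was 9 and without day 12 it was 12, while 381 and 930 of all genes were higher. The medians of this list were 2.56, 1.47 and 2.32 on day 11, day 12 and day 13, beside differences of 0.18, -1.12 and 0.24 for Cxcr4 and of 0.63, -0.12 and -0.10 for Ackr3. Of 10 Cajal-Retzius genes 0 passed, with 3 at an unadjusted p under 0.05 in limma (15.5% of all genes). Some were higher in 3 alternatives, with 2 without day 11, beside 381 of all genes. Some were lower in 3 alternatives. With no block and without the GFP- array of day 13 there was 1, beside 114 of all genes. The medians of the 10 Cajal-Retzius genes were -1.17, 0.23 and 0.22 by day. Reln, the extracellular signal that these cells secrete, averaged 7.43 in GFP+ and 6.10 in GFP- cells, and Ndnf 5.01 and 6.14.

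Of 10 intermediate progenitor genes 0 passed, with 4 at an unadjusted p under 0.05 in limma (15.5% of all genes). In 6 alternatives some of them were lower. Without day 11 and without day 12 there was 1 each, beside 171 and 229 of all genes. With no block and without the GFP- array of day 13 there were 3, beside 114 of all genes. The medians of the 10 genes were -1.005, -1.28 and -0.14 on day 11, day 12 and day 13. Among them, Neurog1, a proneural factor, averaged 5.55 in GFP+ and 6.96 in GFP- cells, and Neurod4 4.72 and 5.94. Of 12 radial glial genes 6 were lower in GFP+ cells and 0 higher, against 0.567% and 0.797% of all genes. The 6 were led by the glutamate transporter gene Slc1a3 (-2.72), the receptor gene Notch1 (-1.89) and Nes, which encodes nestin (-1.52). The 6 became 0 without day 13, after median centring and with the methods' t-test, and 3 with no replicate block. The count was 6 without day 11 and 8 without day 12, while 171 and 229 of all genes were lower. Of 14 general neuronal genes 4 were higher and 0 lower, against 0.797% and 0.567% of all genes. Among the 4 were Syt1 (2.34), a calcium sensor of synaptic vesicles, Myt1l (1.94) and Mapt (1.40), which encodes tau. The 4 became 0 without day 13, after median centring and with the methods' t-test, 2 after a further quantile normalization, and 9 to 11 without day 11, without day 12, with the filters on dim genes and with trended and robust eBayes. On day 12, when Cxcr4 was lower in GFP+ cells, the radial glial median was -1.24, against -1.07 on day 11 and -1.15 on day 13. The part of these cells in the signals of Cxcl12, Cxcr4 and Ackr3 was not tested.

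Markers of other cells that use the ligand or its receptors did not pass the test. Of 12 meningeal and mesenchymal, 12 endothelial and pericyte, 9 blood and microglial and 8 endoderm genes, 0 passed in either direction, with 1, 2, 1 and 0 at an unadjusted p under 0.05 in limma (15.5% of all genes). No gene of these lists had a mean over 6 arrays above 7, and 3574 of all 19938 genes did. Summed over the 12 meningeal and mesenchymal genes, the log2 signals came to 61.9 to 63.7 on the GFP+ arrays and 60.9 to 68.0 on the GFP- arrays, and over the 12 endothelial and pericyte genes to 58.7 to 60.8 and 60.4 to 65.6. In both sums the highest value was that of the GFP- array of day 13, the array that stood apart, on which Cxcl12 was highest too. The same array was highest for the summed signals of the 9 blood and microglial (46.5), the 8 endoderm (44.3) and the 55 chemokine genes (282.1). Pdgfra, which oligodendrocyte precursors also express, was the 1 gene of these lists over 2-fold apart, with 7.12 in GFP+ and 5.86 in GFP- cells (adjusted p = 0.057 from limma), and the meningeal and mesenchymal list had 1 higher gene in 6 of 12 alternatives. In the endothelial and pericyte list the count of lower genes rose above 0 in 1 alternative. Pdgfrb, a receptor of pericytes, had 5.58 in GFP+ and 6.34 in GFP- cells. Twist1, a mesenchymal transcription factor, averaged 5.06 in GFP+ and 5.43 in GFP- cells, and Pecam1, an adhesion protein of endothelium, 4.82 and 5.22. The blood factor Runx1 averaged 5.05 in GFP+ and 5.43 in GFP- cells, the macrophage gene Cd68 5.77 and 5.62, and the endoderm factors Gata6 5.56 and 5.33 and Foxa2 5.57 and 5.79.

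**Figure D3:**
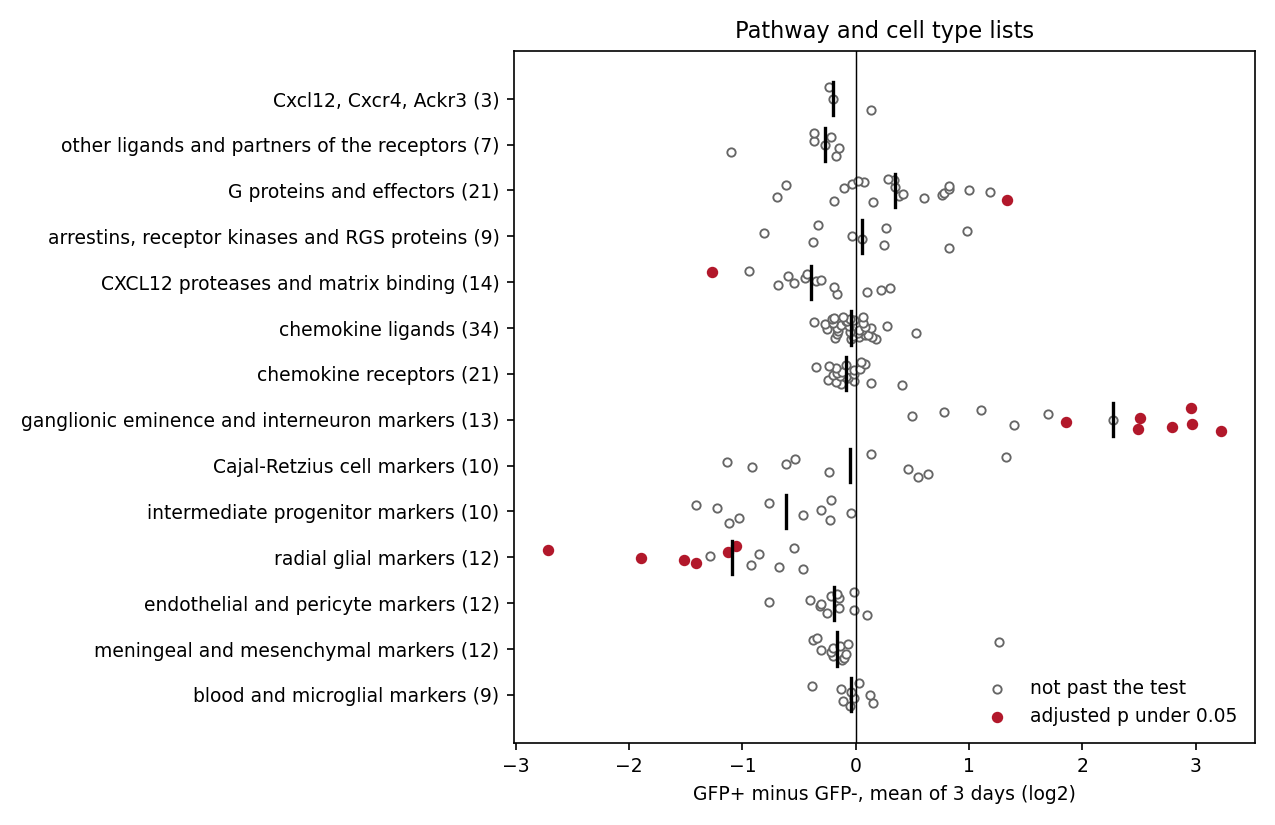
GFP+ minus GFP- difference averaged over 3 days (x axis, log2) for the genes of 14 lists (y axis, gene number beside each name). Filled points passed limma's test at an adjusted p under 0.05, open points did not, and black bars are list medians. Cxcl12 (-0.20), Cxcr4 (-0.23) and Ackr3 (0.14) lie near 0, and the other chemokine genes run from -0.37 (Cxcl14) to 0.53 (Ccl25). The interneuron list has its median at 2.27 and the radial glial list at -1.09.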

How the data were processed

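The authors hybridised total RNA of the sorted cells to GeneChip Mouse Gene 1.0 ST arrays, and the deposited values are log2 signals that GeneSpring computed by RMA16. The sources used here do not say if all 6 arrays entered 1 normalization. Names came from the platform annotation. Of 28853 probe sets 21789 had 1 symbol, 1621 several and 5443 none, and 21698 of the first were matched by Entrez ID to GRCm38.p6 with 0 symbols changed. Each of the 19938 genes was represented by its brightest probe set. The number of arrays limits the precision.

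A linear model of fraction plus day (2 residual degrees of freedom) was fitted per gene in limma 3.58.1 (R 4.3.3). Fractions were paired by the day that the labels give. After the fraction mean was taken off each gene, the 2 arrays of a day correlated at 0.112, 0.558 and 0.368 on day 11, day 12 and day 13, while GFP+ cells of day 11 and GFP- cells of day 13 correlated at 0.297. The fit was tested on simulated data. The members, the lists and the alternatives were chosen with earlier results of these data known. Genes named are the 3 genes and, per list, those past the test (up to 3 per cell type list) or the 2 farthest apart, the 5 brightest chemokine genes, the 5 closest by correlation, and Sulf2, Dpp4 and Slc1a3 beside them. Of the listed genes 9 had no probe set of their own symbol and were not analysed here. Alternatives were no block, each day left out, no block without the GFP- array of day 13, median centring, quantile normalization, the mean of probe sets, every probe set, 2 filters on dim genes, trended and robust eBayes and the methods' t-test. With no block, and in the t-test, the error comes from the spread of arrays within a fraction.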

Additional observations from a re-analysis of the deposited data

Results flagged for a closer look

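The difference between GFP+ and GFP- cells had opposite signs on some pairs of days for each of the 3 genes, with 1 pair of arrays per day, so that the change between 2 days was not tested. Such turns were common, since only 16.9% of all genes were higher and 21.4% lower in GFP+ cells on all 3 days. For Cxcl12 the difference on day 12 minus that on day 11 was -0.0673, and that on day 13 minus that on day 11 was -0.62. For Cxcr4 the change was -1.31 between day 11 and day 12 and 1.36 between day 12 and day 13. For Ackr3 it was -0.75 between day 11 and day 12 and -0.73 between day 11 and day 13. The last turn of sign was absent after median centring and after a further quantile normalization, where the Ackr3 difference on day 13 was 0.05 and 0.07.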

How the results depend on the processing

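Cxcl12, Cxcr4 and Ackr3 stayed short of the test in every alternative that could be run for them, with adjusted p from 0.501 to 0.9999. Cxcl12 kept its sign in 12 alternatives (-0.31 to -0.0014). Cxcr4 ran from -0.50 to 0.21 in 13 and turned without day 12 (-0.47 to 0.21 with 1 day left out), and Ackr3 ran from -0.11 to 0.26 in 12 and turned without day 11 (-0.11 to 0.26 with 1 day left out). Cxcl12 and Ackr3 could not be tested among genes above their array's median on 3 arrays, since neither passed that filter. The slopes per day kept their signs after median centring (-0.25 for Cxcl12, 0.09 for Cxcr4 and -0.31 for Ackr3) and after quantile normalization (-0.24, 0.12 and -0.31), and none passed. The median difference of all genes moved by 0.06 with centring and 0.04 with quantile normalization.

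Counts over all genes moved more, and the cause was not tested. The 159 higher and 113 lower genes became 84 and 41 with no replicate block, 0 and 0 after median centring, and 52 and 99 after quantile normalization. They became 387 and 226 above the 20th percentile of signal, 640 and 312 above the array median, and 549 and 510 with trended and robust eBayes. With 1 day left out they ran from 0 to 930 and from 0 to 229, with 0 in both without day 13. The methods' t-test gave 966 higher and 790 lower at an unadjusted p under 0.05 and 0 and 0 after Benjamini-Hochberg. The count of genes over 2-fold higher, 392, became 210 with no block and without the GFP- array of day 13, and ran from 243 to 728 with 1 day left out. Depth does not apply to arrays, and their number, 3 per fraction, limits the precision.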
